A study of Homo sapiens with 6 samples.

Results

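Notch receptors, ligands and targets were followed in RNA-sequencing values of H1975 cells before and after Osi. The 10 genes were taken by symbol from the 27216 rows of the expression table: the receptors NOTCH1, NOTCH2 and NOTCH3, the ligands JAG1, JAG2 and DLL1, the transcriptional targets HES1, HES4 and HEY1, and the coactivator MAML2. H1975 is a human non-small cell lung cancer (NSCLC) line that carries mutant EGFR, and Osi (osimertinib) is an EGFR tyrosine kinase inhibitor. The 3 parental samples are labelled as Osi for 0 h and the 3 adapted samples as Osi for 72 h, both at 1000 nM and with genotype WT, and the comparison asks which of these transcripts differ once the cells have adapted to the drug. Apoptotic cells were washed off before extraction, so the adapted samples hold the cells left after the wash. All values come from 1 cell line. The study speaks in general of independent experiments and of technical replicates, and neither it nor the labels say which of these the 3 samples of a group are, so the p-values measure only the spread between these samples, which may be technical. In the table the parental columns bear the name DMSO, but no source states whether the parental cells were held in DMSO for the same time. Drug and time in culture therefore cannot be told apart. The labels also describe RNase R digestion, which removes linear RNA, whereas the methods of the study name total RNA, and how the linear transcripts of these genes were affected was not tested.

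Notch receptors are single-pass membrane proteins that are switched on by ligands of the Jagged and Delta-like families on neighbouring cells. Ligand binding exposes the receptor to an ADAM protease and then to gamma-secretase, which frees the intracellular domain. This domain enters the nucleus, binds the DNA-bound factor RBPJ together with a Mastermind-like coactivator, and turns on genes of the HES and HEY families, which encode transcriptional repressors. In the airway, Notch signalling is best known for directing progenitors toward secretory and away from ciliated and neuroendocrine fates.

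All levels below are log2(FPKM + 1). FPKM divides the fragments of a gene by its transcript length and by the total mapped in that sample. Levels of different genes were compared on this length-scaled unit. Sequencing depth is unknown here, and the linear values of a sample summed to between 375342 and 387753. Rows averaging 1 or more were tested with limma, and a gene was said to rise or fall where its Benjamini-Hochberg adjusted p was under 0.05. Of the 10 genes, 8 were tested, while DLL1 and HEY1 lay below this level. On this scale the fold change of a low gene is understated. Across all rows, r was 0.997 within the parental group and 0.996 between adapted replicates 2 and 3. Adapted replicate 1 correlated with these at 0.991, and with the parental samples at 0.973, against 0.963 to 0.964 for adapted replicates 2 and 3. Values without a replicate are given beside a named gene where leaving it out changes its call.

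The cells kept the markers of a lung epithelial line in both groups. The keratins KRT8, KRT18 and KRT19 fell from 9.82, 9.74 and 9.87 to 9.54, 9.17 and 9.12 on average, while EPCAM (7.60 and 7.45) and CDH1 (7.46 and 7.47) were not called. Without adapted replicate 1, CDH1 rose by 0.20 (adjusted p = 0.00648, limma). KRT8 lost its call in each fit that left out 1 sample (adjusted p = 0.111 to 0.134, limma), except the fit without adapted replicate 1. NKX2-1, the lung lineage factor, averaged 5.004 and 5.48 and rose by 0.47 (adjusted p = 0.0117, limma). NAPSA, an enzyme of alveolar cells and lung adenocarcinoma, averaged 6.69 and 5.88. It fell by 0.81 on the log2 scale (adjusted p = 0.00474, limma). SFTPB, a surfactant protein, was near 0. Of the 5 haematopoietic markers, CD3E was at 0 and all 5 stayed below 1 in every sample. The 5 fibroblast markers summed to between 3.04 and 3.16 FPKM in parental and between 7.65 and 9.21 FPKM in adapted samples. Most of this was COL1A1, a collagen chain, while COL1A2, PDGFRB, DCN and LUM stayed below 1 in every sample. Among the 5 endothelial markers CDH5 went from a mean of 0.21 to 1.71 and PECAM1 went from 1.22 to 0.09, both below the level tested, and the other 3 stayed below 1. The part of COL1A1 and CDH5 in any Notch result was not tested.

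JAG1 and HES1 fell and JAG2 rose, and no receptor passed the test. These 3 of the 8 genes tested are 37.5%, while 56.9% of all 12656 rows tested passed. In one direction, 1 of 8 rose against 30.7% of all rows, and 2 of 8 fell against 26.2%. The groups did not overlap in 4 of the 8 genes, and in 66.3% of all rows. With all samples, the shares of calls and of non-overlapping groups are lower than over all rows. Among 8 genes a few calls decide such a gap, and it was not tested. For the calls its direction rests on adapted replicate 1. Without that sample 7 of the 8 genes passed, beside 66.1% of all rows. Neither share is read as a result about the 8 genes. The median log2 fold change over the 8 genes was -0.12, beside 0.03 over all rows, and the median absolute log2 fold change was 0.37, beside 0.31. JAG1 and HES1 changed by 1 log2 unit or more, which 10.5% of all rows did with an adjusted p under 0.05. Only 3.99% of rows tested had a larger absolute log2 fold change than HES1, and 5.23% a larger one than JAG1.

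**Figure D1:**
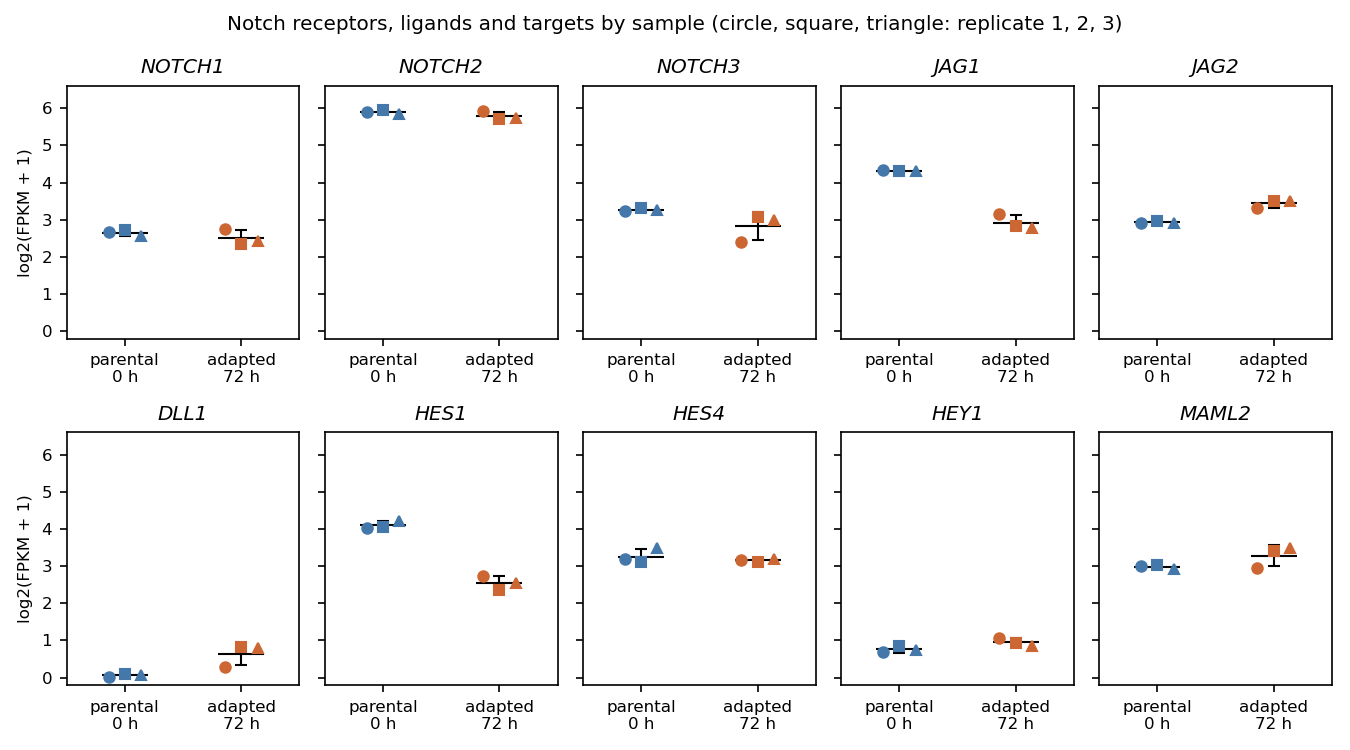
Deposited log2(FPKM + 1) of each of the 10 genes in the 3 parental and 3 adapted samples (points, 1 per sample) with the mean of each group (line) and its SD (error bar). JAG1 and HES1 lie lower and JAG2 higher in all 3 adapted samples, while the points of NOTCH1, NOTCH2, HES4, HEY1 and MAML2 overlap between groups.

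**Figure D2:**
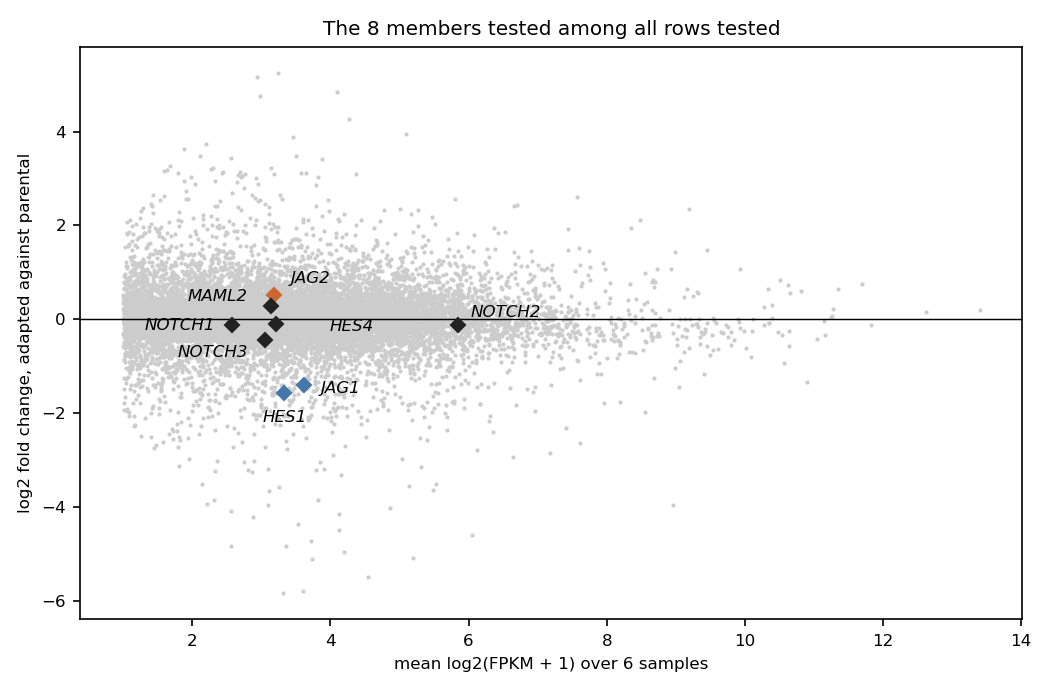
Log2 fold change (adapted against parental) against mean log2(FPKM + 1) for the 12656 rows tested (grey), with the 8 tested genes as diamonds, blue where they fell, orange where they rose and black where they were not called. HES1 and JAG1 lie below most of the grey cloud, where 3.99% and 5.23% of rows have a larger absolute change, and the other 6 lie nearer 0.

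JAG1, the Jagged ligand mutated in Alagille syndrome, was the most abundant Notch ligand of the parental cells. It measured 4.35, 4.30 and 4.31 in parental replicates 1 to 3 and 3.16, 2.82 and 2.79 in adapted replicates 1 to 3. All adapted samples were lower than all parental samples by more than the spread within either group. The mean fell from 4.32 ± 0.03 to 2.92 ± 0.20 (SD, n = 3 each), with a log2 fold change of -1.40 with a standard error of 0.10 (adjusted p = 4.97e-05, limma with Benjamini-Hochberg adjustment). On the FPKM scale this is a mean of 19.0 in parental and 6.63 in adapted samples. Among all rows tested, the level of JAG1 went from the 71.2 to the 37.2 percentile. The gene lies on chromosome 20 at 10637684 to 10673999 on the minus strand (GRCh38, GENCODE v29), and 79 of its 9298 exonic bases overlap the antisense RNA AL050403.2, so reads there cannot be assigned if strand was not used.

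JAG2, the second Jagged ligand, moved the other way. Its values were 2.90, 2.97 and 2.91 in the parental samples and 3.30, 3.51 and 3.51 in the adapted samples. The groups were apart, with adapted replicate 1 the lowest of the adapted samples. JAG2 rose from 2.93 ± 0.04 to 3.44 ± 0.12 (SD, n = 3 each), with a log2 fold change of 0.51 with a standard error of 0.08 (adjusted p = 0.00126, limma with Benjamini-Hochberg adjustment). Larger absolute changes were seen in 29.7% of all rows. JAG2 is encoded on chromosome 14 at 105140981 to 105168824 on the minus strand, and 469 of its 6397 exonic bases are shared with AL512356.1 on the same strand. Reads within these bases cannot be assigned even if strand was used.

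DLL1, a Delta-like ligand, was close to 0 in parental cells, at 0.02, 0.10 and 0.08, and measured 0.29, 0.83 and 0.79 in adapted cells. Each adapted sample was above each parental sample, at FPKM means of 0.0486 and 0.575, and adapted replicate 1 was again nearest the parental level. It was below the level tested, and when all rows were fitted without that limit its log2 fold change was 0.57 (adjusted p = 0.0263, limma). DLL1 lies on chromosome 6 at 170282206 to 170306565 on the minus strand. Its paralogs were low as well. DLL4 averaged 0.82 in parental and 0.51 in adapted samples, with no overlap, and in the same fit without the limit it fell by 0.31 on the log2 scale (adjusted p = 0.0062, limma). DLL3 averaged 0.37 and 0.48, and the non-canonical ligand DLK1 was at 0. DLK2, the paralog of DLK1, averaged 0.50 in parental and 0.74 in adapted samples, with no overlap. It was below the level tested, and in the fit without the limit it rose by 0.24 (adjusted p = 0.0495, limma).

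The order of the ligands turned over between the groups. JAG1 was above JAG2 in each parental sample, and JAG2 was above JAG1 in each adapted sample. Summed FPKM was taken over JAG1, JAG2, DLL1, DLL3 and DLL4, without DLK2. JAG1 took 71.7%, 70.0% and 71.6% of this sum in the parental samples and 44.0%, 33.7% and 33.3% in the adapted samples. The share of JAG2 was 24.0%, 25.6% and 24.6% before and 49.4%, 57.8% and 58.4% after Osi. The sum itself went from 26.7 ± 0.330 to 17.9 ± 0.160 FPKM (SD, n = 3 each). For each of these quantities the groups did not overlap, and an exact two-sided permutation test gave p = 0.1, the smallest that 3 samples against 3 allow. Less RNA per cell and fewer cells with the transcript cannot be told apart in these bulk samples.

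**Figure D3:**
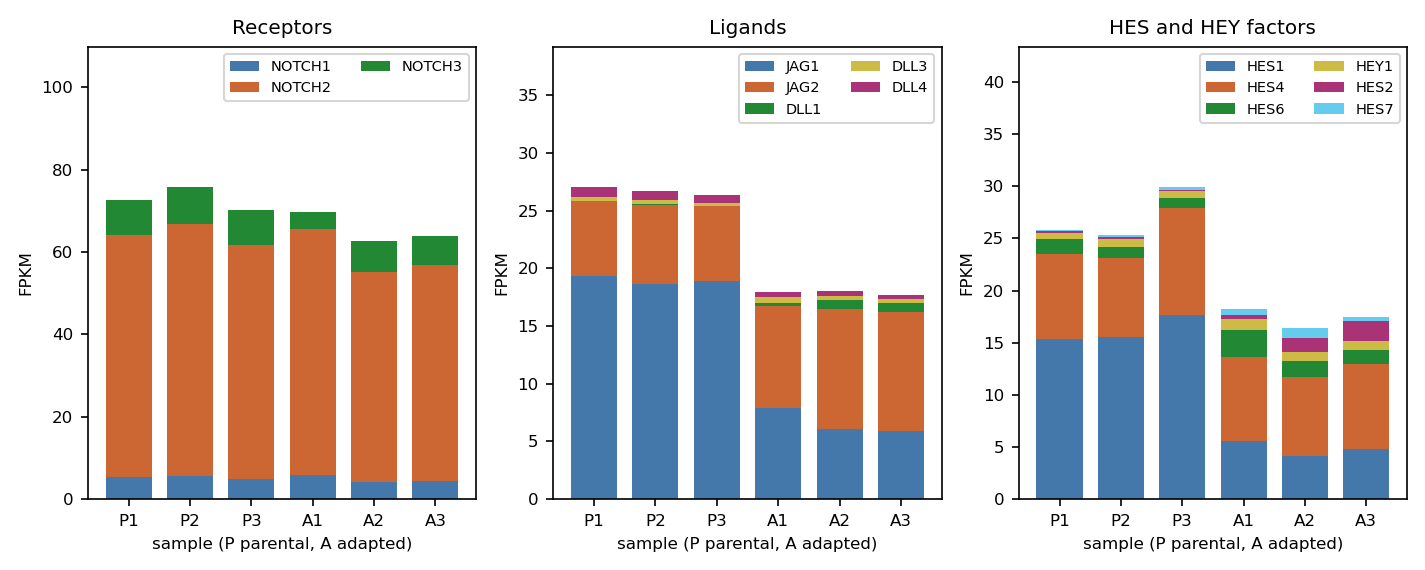
Stacked FPKM of the receptor, ligand and HES/HEY genes (bars from 0, 1 color per gene) in parental samples P1 to P3 and adapted samples A1 to A3; NOTCH4, DLK1 and the HES and HEY genes at or near 0 are not drawn. JAG1 gives way to JAG2 and HES1 to HES4 as the tallest segment in all 3 adapted samples, while NOTCH2 is the tallest receptor segment in all 6.

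Among the receptors NOTCH2 was by far the most abundant in all 6 samples. It measured 5.90, 5.96 and 5.85 in parental and 5.93, 5.70 and 5.74 in adapted samples, above 91.4% of all rows tested on the adapted mean. Adapted replicate 1 lay within the parental range and the other adapted samples below it. Its log2 fold change was -0.12, with a 95% interval of -0.29 to 0.06 (adjusted p = 0.224, limma). NOTCH2 lies on chromosome 1 at 119911553 to 120069626 on the minus strand and shares near-identical sequence with NOTCH2NLA, for which 2.86, 2.90 and 2.92 were listed in parental and 2.86, 2.68 and 2.58 in adapted samples. How reads were divided between them is not given in the sources used here, which leaves the level of NOTCH2 uncertain.

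NOTCH1, the receptor with oncogenic mutations in T cell leukaemia, measured 2.66, 2.71 and 2.55 in parental and 2.76, 2.36 and 2.42 in adapted samples. Adapted replicate 1 was the highest of the 6 and the remaining adapted samples were the lowest. The log2 fold change was -0.13, with a 95% interval of -0.40 to 0.15 (adjusted p = 0.375, limma). The gene lies on chromosome 9 at 136494433 to 136545786 on the minus strand. NOTCH3, known for its role in vascular smooth muscle, measured 3.23, 3.33 and 3.25 in parental and 2.40, 3.09 and 3.003 in adapted samples. The groups did not overlap, but adapted replicate 1 stood far below the others and widened the spread, and the log2 fold change of -0.44 missed the threshold (adjusted p = 0.0609, limma). NOTCH3 is on chromosome 19 at 15159038 to 15200981 on the minus strand. NOTCH4, best known from endothelium, stayed near 0 and was not tested.

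The calls of the receptors rest on adapted replicate 1. Without it the log2 fold change was -0.25 for NOTCH1 (adjusted p = 0.0192, limma), -0.18 for NOTCH2 (adjusted p = 0.0164, limma) and -0.23 for NOTCH3 (adjusted p = 0.0161, limma), so that all 3 fell. In that fit 7 of the 8 genes passed the test, HES4 being the exception, and 66.1% of all rows did. NOTCH3 also fell without adapted replicate 2, by 0.57 on the log2 scale (adjusted p = 0.0374, limma). Adapted replicate 1 was the adapted sample nearest the parental mean in 6 of the 8 genes, NOTCH3 and HES4 excepted, and in 48.0% of all rows. NOTCH3 was above NOTCH1 in 5 samples and below it in adapted replicate 1. Summed receptor FPKM was 72.8 ± 2.80 in parental and 65.4 ± 3.82 in adapted samples (SD, n = 3 each, exact permutation p = 0.1). NOTCH2 made up 80.9% and 83.1% of it, NOTCH3 11.9% and 9.69%, and NOTCH1 7.19% and 7.21%. The NOTCH3 share was 6.14% in adapted replicate 1 and 11.9% in adapted replicate 2, with adapted replicate 3 between them. Without adapted replicate 1 the difference between groups went from -2.19 to -0.41 percentage points for NOTCH3 and from 2.17 to 0.90 for NOTCH2.

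HES1, the classic Notch target and a repressor of differentiation genes, showed the largest change of the 8 genes tested. It measured 4.04, 4.05 and 4.22 in parental samples and 2.72, 2.36 and 2.55 in adapted samples. The groups were separated by more than 1 log2 unit. HES1 fell from 4.10 ± 0.11 to 2.54 ± 0.18 (SD, n = 3 each), with a log2 fold change of -1.56 with a standard error of 0.11 (adjusted p = 3.38e-05, limma with Benjamini-Hochberg adjustment), or a mean of 16.2 FPKM against 4.86. HES1 is encoded on chromosome 3 at 194136145 to 194138732 on the plus strand. HES4, a related repressor, measured 3.19, 3.10 and 3.49 in parental and 3.18, 3.10 and 3.19 in adapted samples. These ranges overlap almost wholly, apart from the higher parental replicate 3. The log2 fold change was -0.10 (95% interval -0.35 to 0.14, adjusted p = 0.433, limma), and it was 0.01 without parental replicate 3 (adjusted p = 0.931, limma). HES4 lies on chromosome 1 at 998962 to 1000172 on the minus strand.

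The promoters of HES1 and HES4 are shown because both hold the motif bound by RBPJ while only HES1 changed past the threshold. Each runs from 250 to 50 bases before the RefSeq start (GRCh38.p14), 5′ to 3′ on the strand of the gene, at chr3:194135898-194136098 (plus) for HES1 and chr1:1000147-1000347 (minus) for HES4, with the motif TGGGAA in capitals:
HES1: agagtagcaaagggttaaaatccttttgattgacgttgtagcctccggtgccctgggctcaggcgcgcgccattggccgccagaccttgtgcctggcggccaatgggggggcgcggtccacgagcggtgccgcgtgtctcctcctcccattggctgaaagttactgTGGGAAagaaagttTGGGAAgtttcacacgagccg
HES4: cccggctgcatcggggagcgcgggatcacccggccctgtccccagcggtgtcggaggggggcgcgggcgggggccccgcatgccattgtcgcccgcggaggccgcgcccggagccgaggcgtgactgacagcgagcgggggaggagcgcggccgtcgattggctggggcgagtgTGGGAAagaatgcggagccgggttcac
TGGGAA and its reverse complement TTCCCA were searched in the 250 bases before the start. HES1 holds 2 copies, at 84 to 79 and 70 to 65 bases before the start, 14 bases apart from start to start, and HES4 holds 1, at 76 to 71. At least 1 copy is found in 20.8% of 35116 RefSeq promoters and at least 2 in 2.90%. The longer GTGGGAA, which contains the shorter motif, occurs in both and in 5.43% of all promoters. Promoters of 8 of the 10 genes were matched, and the remaining 6 (NOTCH1, NOTCH2, NOTCH3, JAG1, JAG2 and MAML2) hold no TGGGAA in this window. Over the wider pathway 12 of 64 matched promoters hold at least 1 copy and 4 hold at least 2, with those of the low genes HES5 and HEYL among the 4. The promoter of NRARP, a target described below that fell, holds none in this window. The letters CACNAG, an N-box recognized by HES proteins, were found in the HES1, NOTCH3 and MAML2 promoters and in 32.0% of all promoters. No binding was measured, and a match is a description of the sequence.

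HEY1, the third target and a factor of vascular development, was low. It measured 0.69, 0.86 and 0.74 in parental and 1.07, 0.94 and 0.84 in adapted samples, so the groups overlapped, and it was not tested at the level set. Fitted without that limit its log2 fold change was 0.19 (adjusted p = 0.149, limma). Of the 12 HES, HEY and feedback genes listed, 4 were tested, none rose and 2 fell, which is 50% called beside 56.9% of all rows. The other one was NRARP, a direct target whose product damps Notch signalling. NRARP measured 1.56, 1.39 and 1.41 in parental and 0.98, 0.55 and 0.75 in adapted samples, with no overlap, and fell by 0.69 on the log2 scale (adjusted p = 0.0028, limma). HES6, which opposes HES1, averaged 1.08 and 1.46 (adjusted p = 0.0897, limma). HES2 averaged 0.22 in parental and 1.09 in adapted samples and HES7 0.25 and 0.70, both below the level tested. In the fit without that limit the adjusted p from limma was 0.042 for HES2 and 0.0285 for HES7. HES3 and HEY2 were at 0, HES5 was above 0 in 1 adapted sample, and HEYL and DTX1 stayed low, DTX1 with a lower mean in adapted samples (adjusted p = 0.0307 without the limit, limma).

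Within the HES and HEY family the leading gene changed. HES1 held 60.0% of the summed FPKM in parental and 27.7% in adapted samples, and HES4 31.8% and 45.4%. HES1 was the higher of this pair in each parental sample and HES4 in each adapted sample. The family sum went from 27.0 ± 2.51 to 17.5 ± 0.804 FPKM (SD, n = 3 each). The exact permutation p was 0.1 for the sum and for both shares.

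MAML2, a Mastermind-like coactivator that is also a fusion partner in mucoepidermoid carcinoma, measured 3.01, 3.03 and 2.93 in parental samples. In adapted samples it was 2.96, 3.41 and 3.49. Adapted replicate 1 lay within the parental range and the other adapted samples above it. The log2 fold change was 0.30, with a 95% interval of -0.03 to 0.62 (adjusted p = 0.101, limma), and without adapted replicate 1 MAML2 rose by 0.46 (adjusted p = 6.00e-04, limma). MAML2 lies on chromosome 11 at 95976598 to 96343180 on the minus strand, and 549 of its 7109 exonic bases overlap AP000779.1 on the opposite strand. Among the 7 nuclear activators tested of 8 listed, CREBBP, a histone acetyltransferase, rose by 0.54 (adjusted p = 0.00488, limma). KAT2B, another acetyltransferase, fell by 0.34 on the log2 scale (adjusted p = 0.0132, limma). KAT2B lost its call without parental replicate 2 (adjusted p = 0.0593, limma) and without parental replicate 3 (adjusted p = 0.0538, limma). RBPJ, the DNA-binding factor of the pathway, had a log2 fold change of -0.09 (adjusted p = 0.365, limma), and it fell by 0.17 on the log2 scale without adapted replicate 1 (adjusted p = 0.0266, limma). MAML1 had a log2 fold change of -0.02, and MAML3 was not tested. The 2 activators called are 28.6% of those tested, beside 56.9% of all rows, and 7 genes are too few to compare shares.

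The rest of the pathway was described with lists by role. Over all roles 58 of 76 listed genes were tested, 13 rose and 13 fell, which is 44.8% called, beside 56.9% of all rows. Their median log2 fold change was 0.03. The lists overlap with the 10 genes, which are counted in them.

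Of the 8 glycosyltransferases, which add sugars to Notch receptors and tune their response to ligands, 5 rose and 1 fell. In all 75% were called, beside 56.9% of all rows, of which 30.7% rose and 26.2% fell. LFNG, a Fringe enzyme, measured 3.89, 4.02 and 3.98 in parental and 4.86, 5.38 and 5.01 in adapted samples. It was higher in every adapted sample and rose, with a log2 fold change of 1.12 (adjusted p = 3.17e-04, limma). GXYLT2, a xylosyltransferase, rose by 0.68 (adjusted p = 0.00186, limma) and POGLUT1, which adds O-glucose, by 0.43 (adjusted p = 0.0268, limma). POGLUT1 lost its call when parental replicate 1, parental replicate 2 or adapted replicate 2 was left out (adjusted p = 0.0714 to 0.0943, limma). MFNG, a second Fringe enzyme, fell by 0.48 on the log2 scale (adjusted p = 0.00861, limma). Of the 8 proteases tested of 9 listed, 3 rose and 1 fell, 50% called and near the background. NCSTN, the gamma-secretase subunit that docks the substrate, rose by 0.52 (adjusted p = 0.00157, limma), and PSEN2, a presenilin, by 0.28 (adjusted p = 0.0438, limma). ADAM17, a sheddase, fell by 0.24 on the log2 scale (adjusted p = 0.0267, limma). The calls of PSEN2 and ADAM17 depended on single samples. PSEN2 lost its call in the fits that left out 1 sample (adjusted p = 0.0564 to 0.133, limma), except the fit without adapted replicate 3. Its log2 fold change without adapted replicate 1 was 0.19. ADAM17 lost its call without any of the parental samples or without adapted replicate 2 (adjusted p = 0.052 to 0.097, limma).

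Of the 16 genes of endocytosis and turnover tested of 17 listed, 1 rose and 4 fell. The share called was 31.2%, beside 56.9% of all rows. DTX4, a Deltex ubiquitin ligase, measured 2.71, 2.65 and 2.69 in parental and 3.75, 4.43 and 4.40 in adapted samples, without overlap, and rose by 1.52 (adjusted p = 3.24e-04, limma). Its paralog DTX2 went the other way, from 5.72, 5.84 and 5.64 to 4.80, 4.70 and 4.93, and fell by 0.92 on the log2 scale (adjusted p = 1.13e-04, limma). EPN2, an endocytic adaptor, fell by 0.54 (adjusted p = 3.29e-04, limma) and ITCH, a ubiquitin ligase, by 0.53 (adjusted p = 0.00186, limma). Of the 10 corepressors tested of 11 listed, 2 rose and 3 fell, again 50% and near the background. TLE2, a Groucho-type corepressor of the kind HES proteins recruit, measured 1.19, 1.12 and 0.92 in parental and 2.49, 3.52 and 3.66 in adapted samples. It rose by 2.14, the largest change among the pathway genes tested, with adapted replicate 1 again the lowest adapted sample (adjusted p = 6.69e-04, limma). AES, the older symbol of TLE5, rose by 0.60 (adjusted p = 0.00524, limma). TLE3 fell by 0.69 (adjusted p = 0.00361, limma), CTBP2 by 0.52 (adjusted p = 0.00698, limma) and NCOR1 by 0.31 on the log2 scale (adjusted p = 0.00944, limma).

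**Figure D4:**
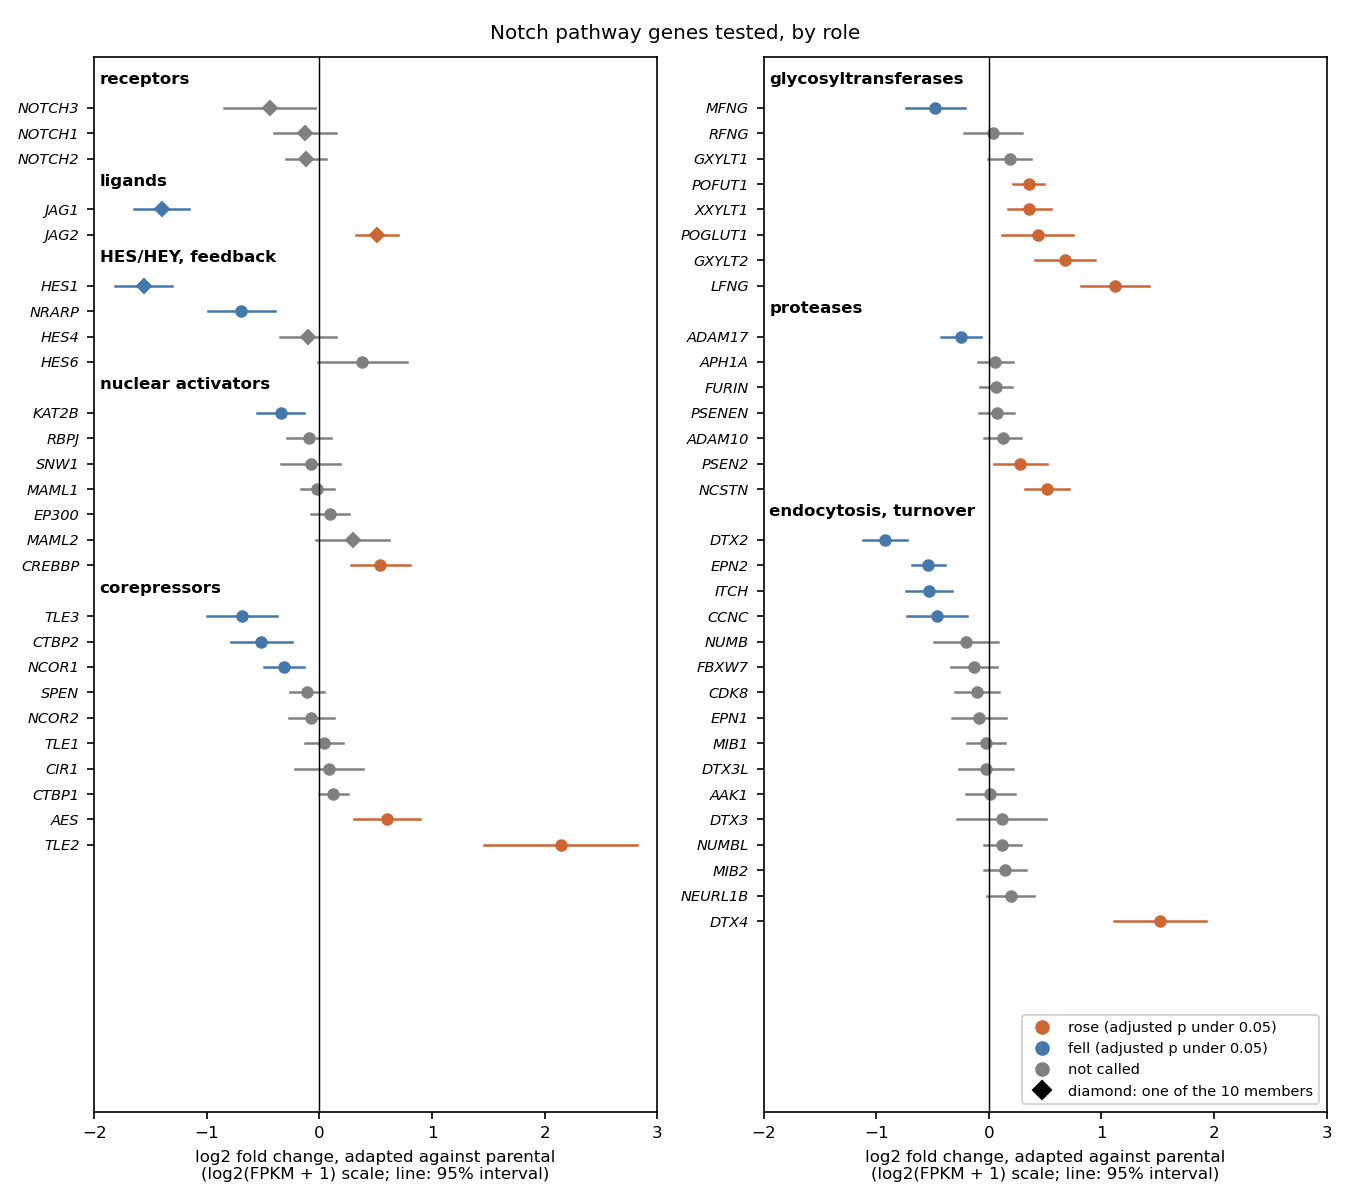
Log2 fold change (adapted against parental, points) with its 95% interval (lines) for the pathway genes tested and reported here, grouped by role, orange where they rose, blue where they fell and grey where they were not called. JAG1 and HES1 show the largest falls, and TLE2, DTX4 and LFNG the largest rises.

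Genes of the airway fates that Notch is known to direct were mostly low in these cells. Of 9 listed, 3 were tested, and 1 rose and 1 fell, too few to set beside the shares over all rows. SOX9, a factor of distal lung progenitors, rose by 0.93 (adjusted p = 2.68e-04, limma). TP63, the basal cell factor, fell by 0.96 on the log2 scale (adjusted p = 0.0115, limma), and adapted replicate 1 was the lowest sample. SOX2 had a log2 fold change of -0.46 (adjusted p = 0.236, limma), which rests on adapted replicate 1 and was -0.054 without it. FOXJ1, the regulator of ciliated cells, averaged 0.39 in parental and 1.02 in adapted samples and was below the level tested (adjusted p = 0.0031 without the limit, limma). The secretory genes SCGB1A1 and SCGB3A2 and the neuroendocrine genes NEUROD1 and INSM1 were listed at 0 in all 6 samples.

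The calls of JAG1, JAG2 and HES1 held at an adjusted p under 0.05 in all 18 alternative fits, while JAG2 is below the further limit of 1 log2 unit. Of the rest, NOTCH1, NOTCH2, NOTCH3 and MAML2 gained a call under some, as the plot of alternatives shows.

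**Figure D5:**
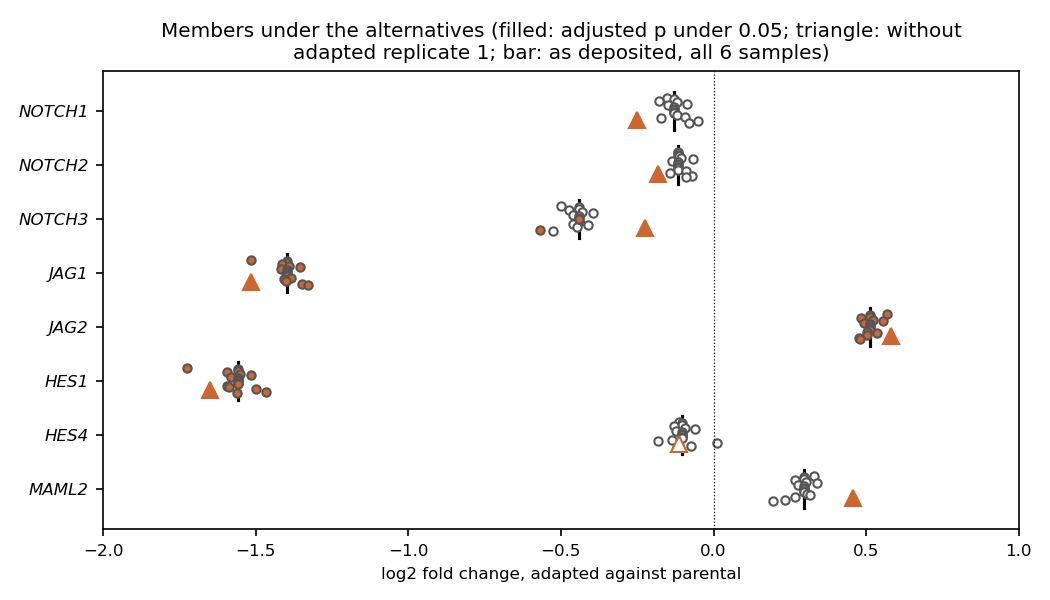
Log2 fold change of each of the 8 genes tested as deposited (bars) and under the alternative settings (points, triangle without adapted replicate 1), filled where the adjusted p was under 0.05. JAG1, HES1 and JAG2 stay called on 1 side of 0, while the points of HES4 reach 0.01.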

How the data were processed

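RNA sequencing of H1975 cells gave 6 samples. The authors deposited 1 table of log2 values, and their scale, log2(FPKM + 1), was taken from the values. The submitters' processing notes name STAR, Bowtie2 2.1.0, edgeR and hg38, with no role given, and the study's methods name DESeq2, which needs counts. Columns were matched to samples by group and replicate number. Rows with a mean of at least 1 were fitted with limma 3.58.1 in R 4.3.3 (lmFit, eBayes with an intensity trend, unpaired, two-sided), with Benjamini-Hochberg adjustment over 12656 rows. The fit was tested on simulated data. Sums and shares used 2 to the power of the value, minus 1.

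The 10 genes and the lists by role were chosen with earlier results of these data known. All 10 and their paralogs were named, and from each other list the 3 largest rises and 3 largest falls without overlap. Markers were also named. For a few listed genes no values are given. Positions are from GENCODE v29 and promoters from RefSeq. Alternatives covered pseudocount, filter, normalization, eBayes, replicate block, rows left out and each replicate left out. Depth is unknown, so no counting error is given.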

Additional observations from a re-analysis of the deposited data

How the results depend on the processing

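JAG1 (-1.52 to -1.33), JAG2 (0.48 to 0.58) and HES1 (-1.73 to -1.47) kept their direction and passed an adjusted p of 0.05 in all 18 alternative fits. With the further limit of 1 log2 unit JAG2 was not called, which left 2 of the 8 genes. Over the 8 genes tested, 142 of 143 values kept the direction as deposited. The exception was HES4, at -0.18 to 0.010 with 1 sample left out. Leaving out 1 sample gave -0.25 to -0.053 for NOTCH1, -0.18 to -0.072 for NOTCH2, -0.57 to -0.23 for NOTCH3 and 0.20 to 0.46 for MAML2, a median over the 8 genes of -0.20 to -0.074, and 3 to 7 of the 8 called. NOTCH1 had a mean below 3 and no value under the stricter filter. Deviations of same-numbered samples correlated at r = -0.051, -0.031 and -0.02, so no shared deviation was seen. Such a check cannot tell whether same-numbered samples were handled together, so a fit with a replicate block is given as well. With the replicate block NOTCH3 fell by 0.44 on the log2 scale (adjusted p = 0.0404, limma), and no other call of the 8 genes changed. In that fit 25 of 58 pathway genes and 6761 of 12656 rows were called, and 23 of the 25 were also called as deposited. HES6 gained a call (adjusted p = 0.0321, limma). POGLUT1 (adjusted p = 0.0565, limma), PSEN2 (adjusted p = 0.0755, limma) and ADAM17 (adjusted p = 0.0573, limma) lost theirs. With a pseudocount of 0.1 the difference was 2.07 for DLL1 and 0.38 for HEY1. Of all rows, 4532 were called with a mean of at least 3 and 1328 with a change of 1 log2 unit or more, which left 5 pathway genes. Without adapted replicate 1, 34 pathway genes and 8370 rows were called, and of these genes 25 were among the 26 called as deposited. The difference in the NOTCH1 share of receptor FPKM was 0.026 percentage points as deposited, -0.24 after quantile normalization and -0.49 to 0.34 with 1 sample left out. The causes were not tested. With each sample scaled to an equal sum, 54.9% of calls were higher, against 54.0% as deposited. Without the mitochondrially encoded genes in that sum, 59.1% were. Depth is unknown, which limits what can be said of DLL1, HEY1 and other low genes.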
